A study of Mus musculus with 35 samples.

Results

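Luminal mammary epithelial cells sorted as Sca1-positive were compared with luminal cells sorted as Sca1-negative. The members were the samples whose titles name a luminal sort with high CD24, 6 of them Sca1-positive and 6 Sca1-negative, which together are 12 of the 35 samples of the series. Gene expression had been measured on 1-colour Affymetrix arrays, 1 per sample, in 6 sorted subpopulations of the mouse mammary gland. Beside the 2 luminal sorts these were basal cells with low and with high CD49f, stromal cells, and total epithelial cells. Each luminal sort had 3 samples from parous and 3 from nulliparous mice, and each sample held 10000 cells pooled from the 4th mammary glands of 5 mice. Parous mice were mated at 42 days of age and went through pregnancy, with 21 days given to lactation and 40 days to involution, in which the milk-secreting tissue is removed. Nulliparous mice were virgins of matched age. The high CD24 gate was shared by all 12 samples, so the groups differ by the Sca1 gate and the reproductive history alone as far as the labels go, and strain and genotype were not given in the sources used here. A gate on a surface protein can hold cells of several states, and every value below is a mean over the cells of a pool.

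The luminal layer of the mammary duct lines the lumen and holds cells of different kinds. Hormone-sensing cells carry the receptors for estrogen and progesterone, encoded by Esr1 and Pgr, and relay those hormones to their neighbours through secreted signals such as WNT4, RANKL and amphiregulin. Luminal progenitor cells lack most of these receptors, carry the receptor tyrosine kinase KIT and the ETS transcription factor ELF5, and give rise to the alveolar cells that secrete milk. Sca1 is a small protein of the Ly6 family anchored in the outer cell membrane by a lipid, encoded by Ly6a, and it has been used to separate hormone-sensing from progenitor-rich luminal cells. Ly6a had no probe set of its own here, so the gate itself could not be checked by the array.

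The starts of 4 genes on which the comparison turned are shown to place them in the genome: the estrogen receptor gene, which was higher in Sca1-positive cells, and 3 genes that were lower there, Kit, Elf5 and Mme. Each line gives the 250 bases before a transcription start from RefSeq (build GRCm38.p6, plus strand in all 4), for starts whose window lies outside the annotated span of the gene. Esr1 lies at chr10:4611739-4611988, Kit at chr5:75574737-75574986, Elf5 at chr2:103411848-103412097 and Mme at chr3:63294961-63295210. Capitals mark a match to 1 of 6 motifs searched on both strands.
Esr1: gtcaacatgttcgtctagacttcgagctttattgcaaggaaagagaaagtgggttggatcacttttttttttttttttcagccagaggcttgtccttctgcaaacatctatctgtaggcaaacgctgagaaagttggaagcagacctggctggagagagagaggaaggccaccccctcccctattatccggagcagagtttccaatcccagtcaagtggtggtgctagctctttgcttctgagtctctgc
Kit: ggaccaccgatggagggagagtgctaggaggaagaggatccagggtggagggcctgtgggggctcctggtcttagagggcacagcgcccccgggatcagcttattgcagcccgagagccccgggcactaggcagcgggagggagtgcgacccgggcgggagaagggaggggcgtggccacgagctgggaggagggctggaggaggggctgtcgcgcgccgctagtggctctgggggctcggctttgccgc
Elf5: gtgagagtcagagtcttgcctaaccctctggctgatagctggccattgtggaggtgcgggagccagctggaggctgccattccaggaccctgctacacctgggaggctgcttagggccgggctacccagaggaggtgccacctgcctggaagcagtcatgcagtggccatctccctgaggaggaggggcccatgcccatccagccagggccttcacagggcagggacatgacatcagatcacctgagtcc
Mme: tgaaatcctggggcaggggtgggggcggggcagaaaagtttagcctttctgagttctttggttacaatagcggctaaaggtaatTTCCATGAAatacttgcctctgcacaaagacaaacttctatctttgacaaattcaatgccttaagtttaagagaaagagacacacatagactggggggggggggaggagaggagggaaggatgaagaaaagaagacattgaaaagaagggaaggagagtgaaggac
These windows differed in base composition: GC made up 47.6% of the Esr1 window, 70.8% of the Kit window with 17 CpG, 62.8% of the Elf5 window with 2 CpG and 45.6% of the Mme window. The capitals in the Mme window are the STAT motif TTCNNNGAA, 166 bases before the start. The other motifs were the estrogen receptor motif (GGTCA and its reverse complement, 3 bases apart), the progesterone receptor motif (GNACA and its reverse complement, 3 bases apart), the forkhead motif TGTTTAC, the ETS motif CCGGAA and the GATA motif AGATAA, and none of these letters were in the 4 windows. Over the sorts, 170 of the 239 genes called more than 1 log2 unit higher in Sca1-positive cells, and 267 of the 352 called more than 1 log2 unit lower, had a promoter in the RefSeq table. The ETS motif was in 6.52% of the windows of the higher genes and 6.42% of those of the lower genes, beside 15.7% of the windows of all measured genes and 12% of all windows in the table. The STAT motif was in 6.52% and 6.98%, beside 6.55% of measured and 7.02% of all windows. The forkhead motif was in 4.35% and 5.03%, beside 2.67% and 3.17%. The GATA motif was in 4.78% and 6.98%, beside 8.45% and 9.99%. The estrogen receptor motif was in none of the windows of either set and in 0.0261% of measured and 0.0639% of all windows, and the progesterone receptor motif was in none of the higher and 0.279% of the lower, beside 0.36% and 0.387%. No test was made of these shares.

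The Sca1 gate set the luminal samples apart more than history did. Across genes, Pearson's r was 0.983 to 0.991 for 12 pairs of samples of the same group, 0.979 to 0.988 for 18 pairs of the same sort and other history, and 0.96 to 0.975 for 36 pairs of different sorts. Principal component 1 of the 12 samples held 45.8% of the variance and placed Sca1-positive samples at 22.5 to 29.6 and Sca1-negative samples at -30.8 to -21.9. Component 2 held 13.8% and separated the histories.

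Of 19937 genes measured, 3212 differed between the sorts over both histories (16.1%; limma, adjusted p under 0.05), 1794 of them higher (9%) and 1418 lower (7.11%) in Sca1-positive cells. The larger differences lay on the lower side. Among called genes, 239 were more than 1 log2 unit higher and 352 more than 1 log2 unit lower, and beyond 2 log2 units there were 12 higher and 82 lower. The median difference over all genes was -0.0125. The 6 samples of the sorts did not overlap for 1671 genes (8.38%), of which 1543 were called.

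**Figure D1:**
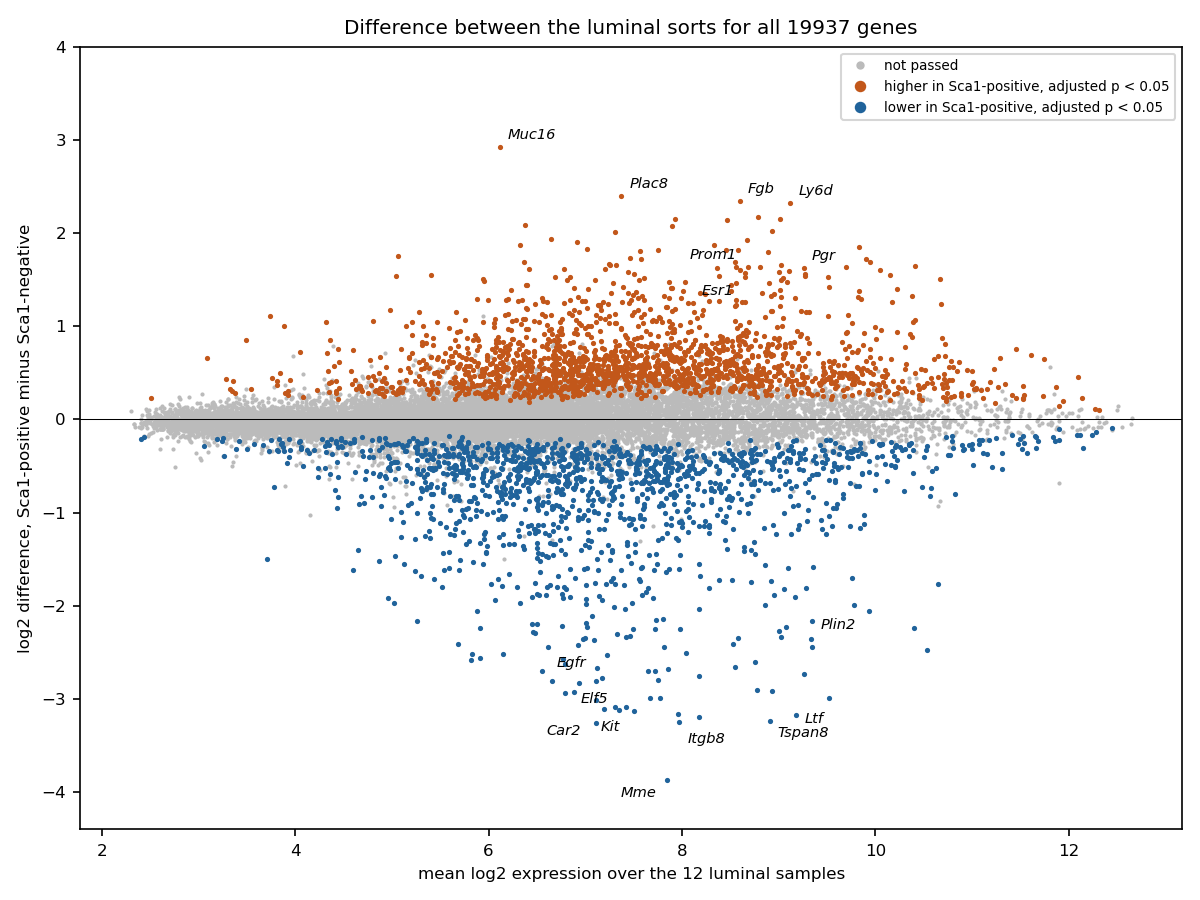
Mean log2 expression over the 12 luminal samples (horizontal axis) against the log2 difference, Sca1-positive minus Sca1-negative over both histories (vertical axis), 1 point per gene for 19937 genes. Called genes are coloured, and the called genes reach further down, to -3.88 for Mme, than up, to 2.93 for Muc16.

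Both sorts carried the marker genes that their gate is used for, on opposite sides. Values are log2 expression of a gene's brightest probe set, and each difference is Sca1-positive minus Sca1-negative with the standard error (SE) of the fit, given after ± inside brackets. Each difference below over both histories passed the test (limma, adjusted p under 0.05) unless the text says that it did not, and higher and lower refer to Sca1-positive cells. Esr1 was at 8.54 to 8.96 (median 8.78) in Sca1-positive samples and 7.12 to 7.90 (median 7.46) in Sca1-negative samples. Pgr was at 9.84 to 10.36 (median 10.09) against 7.64 to 9.14 (median 8.43). Neither receptor gene overlapped between the sorts, with differences of 1.25 (SE 0.14) for Esr1 (adjusted p = 1.11e-07) and 1.62 (SE 0.19) for Pgr (adjusted p = 1.9e-07), and the lowest Sca1-positive Pgr value lay above the highest Sca1-negative value by less than the range within the Sca1-negative sort. Kit was at 5.67 to 6.15 (median 5.96) against 8.70 to 9.49 (median 9.09). Elf5 was at 5.36 to 6.32 (median 5.86) against 8.52 to 9.50 (median 8.98). For these the gap between the sorts was wider than the range within either, with differences of -3.13 (SE 0.19) for Kit (adjusted p = 6.86e-13) and -3.09 (SE 0.20) for Elf5 (adjusted p = 2.25e-12), or 8.73-fold and 8.5-fold lower in Sca1-positive cells. In bulk RNA, fewer cells of a type and less RNA per cell cannot be told apart, and this holds for each difference that follows.

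**Figure D2:**
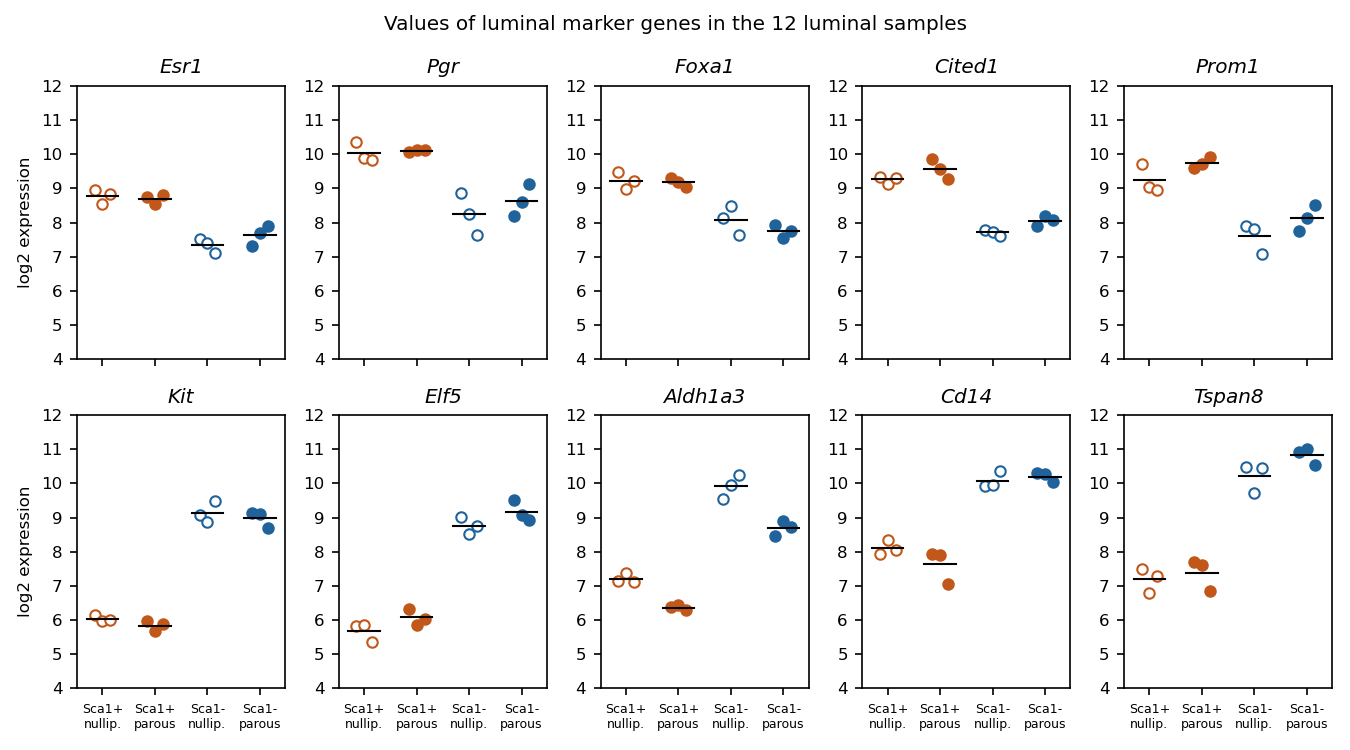
Log2 expression (vertical axis) of 5 hormone-sensing genes (top) and 5 luminal progenitor genes (bottom) in each of the 12 luminal samples. Points are samples (open nulliparous, filled parous), lines are means of 3, and for all 10 genes every Sca1-positive sample (orange) lies on 1 side of every Sca1-negative sample (blue). The 10 genes were chosen from the 2 lists. Samples of the sorts did not overlap for 6 of 9 measured hormone-sensing and 9 of 12 progenitor genes, beside 8.38% of all genes.

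Cd24a, Itga6, Krt8, Krt18, Gata3 and Sox9 did not pass the test in the fit of all 35 samples, which does not show that their levels are equal. Cd24a, which encodes the CD24 protein of the gate, was at 11.76 to 12.15 (median 12) in Sca1-positive and 11.56 to 11.87 (median 11.70) in Sca1-negative samples, a difference of 0.27 (SE 0.19) with an adjusted p of 0.408. With the same difference it passed when the 12 luminal samples were fitted alone (adjusted p = 0.00982) and with the replicate number as a block (adjusted p = 0.0157). Itga6, which encodes the CD49f used to part the basal sorts, differed by 0.043 (SE 0.12, adjusted p = 0.885). The keratin genes Krt8 and Krt18, which mark simple epithelium, differed by 0.14 (SE 0.27) and 0.071 (SE 0.34). Krt8 passed in the luminal samples alone (adjusted p = 0.0242) and with the block (adjusted p = 0.0195), and Gata3 with the block (adjusted p = 0.043). Gata3, a transcription factor gene of the luminal lineage, differed by -0.36 (SE 0.17, adjusted p = 0.168). Sox9 differed by 0.03 (SE 0.10, adjusted p = 0.908). Other keratin genes of luminal cells were called higher, Krt7 by 0.86 (SE 0.25) and Krt19 by 0.76 (SE 0.25). Krt7 lost its call without nulliparous pool 1 in every subpopulation (adjusted p = 0.0521).

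Genes of hormone-sensing cells stood on the Sca1-positive side. Of 9 measured genes on the list, 7 were higher and none lower, with a median of 1.25. Beside this and the counts of the lists that follow, 9% of all genes were higher and 7.11% lower. Prom1, which encodes the membrane glycoprotein CD133, was at 8.97 to 9.91 (median 9.67) in Sca1-positive and 7.08 to 8.52 (median 7.85) in Sca1-negative samples. Cited1, a transcriptional coactivator of the estrogen receptor, was at 9.14 to 9.85 (median 9.33) against 7.61 to 8.20 (median 7.85). Foxa1, a forkhead factor that opens chromatin for that receptor, was at 8.98 to 9.47 (median 9.20) against 7.56 to 8.48 (median 7.84). Tbx3, a T-box factor needed for mammary development, was at 7.45 to 8.14 (median 7.74) against 6.32 to 6.76 (median 6.54), and the sorts did not overlap for any of these 4 genes. The differences were 1.63 (SE 0.19), 1.53 (SE 0.17), 1.28 (SE 0.16) and 1.22 (SE 0.12). Wnt4, a secreted target of progesterone, differed by 0.38 (SE 0.09) and its samples overlapped. Tnfsf11, which encodes RANKL, was at 6.52 to 7.17 (median 6.75) against 6.62 to 7.14 (median 6.89) and did not pass (difference -0.11 ± 0.11, adjusted p = 0.648). Prlr and Areg had no probe set of their own. Against the other subpopulations, Esr1, Pgr, Foxa1, Cited1, Prom1 and Tbx3 each had their highest mean in Sca1-positive cells. Esr1 averaged 8.74 there, 7.49 in Sca1-negative cells, 7.24 in stromal cells and 6.72 in basal CD49f-low cells.

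Luminal progenitor genes were lower in Sca1-positive cells, 9 of 12 measured with none higher (median -1.35). Aldh1a3, an enzyme that makes retinoic acid, was at 6.29 to 7.39 (median 6.77) in Sca1-positive and 8.45 to 10.25 (median 9.21) in Sca1-negative samples. Cd14, a coreceptor for bacterial lipopolysaccharide, was at 7.05 to 8.33 (median 7.93) against 9.91 to 10.37 (median 10.15). Tspan8, a tetraspanin of the cell surface, was at 6.80 to 7.69 (median 7.39) against 9.73 to 11.01 (median 10.51). None of the 3 overlapped between sorts, with differences of -2.51 (SE 0.17), -2.27 (SE 0.32) and -3.23 (SE 0.34). Ehf, an ETS factor of epithelia, differed by -1.13 (SE 0.24). The integrin genes Itgb3 and Itga2, often used as surface markers of progenitors, did not pass: Itgb3 was at 6.26 to 6.65 (median 6.55) against 6.30 to 6.98 (median 6.89) and Itga2 at 9.08 to 9.83 (median 9.38) against 9.33 to 10.52 (median 9.84). Itga2 lay near the threshold (difference -0.50 ± 0.18, adjusted p = 0.0522) and passed in 9 of 22 alternatives. Kit and Elf5 in Sca1-positive cells were close to their levels in basal CD49f-low cells, with means of 5.94 and 5.996 for Kit and 5.88 and 5.76 for Elf5.

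Milk protein genes were lower in Sca1-positive cells, 12 of 16 measured with none higher and a median of -2.02. Csn1s1, which encodes alpha-S1 casein, was at 5.24, 7.51 and 5.44 in the 3 nulliparous Sca1-positive samples and 8.83, 10 and 9.70 in the nulliparous Sca1-negative samples. In parous mice it was at 10.29, 10.45 and 9.79 and 11.74, 11.54 and 11.60. Within each history every Sca1-negative sample was higher, but the parous Sca1-positive samples reached the range of the nulliparous Sca1-negative ones, so the sorts overlapped when histories were joined (difference -2.45 ± 0.60, adjusted p = 0.00396). Csn2, the beta-casein gene, was at 6.10 to 11.10 (median 9.58) against 8.74 to 11.93 (median 11.12) and differed by -1.71 (SE 0.48). Its call was lost without the Sca1-negative nulliparous sample 2 (-1.43, adjusted p = 0.0514), without the Sca1-positive nulliparous sample 1 (-1.44, adjusted p = 0.0532), and without nulliparous pool 3 in every subpopulation (-1.58, adjusted p = 0.0634). Csn1s2b did not pass (difference -0.185, adjusted p = 0.0729), nor did Csn3, for kappa-casein, in the fit of all 35 samples (difference -0.93 ± 0.50, adjusted p = 0.245). With the same difference Csn3 passed in the luminal samples alone (adjusted p = 0.00015) and with the replicate block (adjusted p = 0.00019). It also passed without nulliparous pool 3 in every subpopulation (-0.816, adjusted p = 0.013). Wap, for whey acidic protein, differed by -0.44 (SE 0.11).

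Among milk protein genes outside the caseins, Lpo and Glycam1 did not pass (differences -0.177 and 0.695, adjusted p = 0.24 and 0.812), and the others measured were lower in Sca1-positive cells. Ltf, the iron-binding lactoferrin, was at 6.61 to 8.45 (median 7.57) in Sca1-positive and 9.77 to 11.40 (median 10.92) in Sca1-negative samples. Muc15, a membrane mucin of the milk fat globule, was at 5.91 to 7.49 (median 6.56) against 9.39 to 9.99 (median 9.82). Trf, for the iron carrier transferrin, was at 8.34 to 10.03 (median 9.31) against 11.21 to 12.12 (median 11.92). None of them overlapped, with differences of -3.17 (SE 0.31), -3.20 (SE 0.32) and -2.48 (SE 0.29). Muc1, another mucin of the globule, differed by -2.31 (SE 0.14).

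Genes of milk lipid synthesis went both ways, with 4 higher and 6 lower of 22 measured and a median of -0.0767. Plin2, which coats lipid droplets, was at 7.86 to 8.75 (median 8.24) in Sca1-positive and 9.95 to 10.90 (median 10.33) in Sca1-negative samples, without overlap (difference -2.16 ± 0.13). Acaca, for acetyl-CoA carboxylase, the committed step of fatty acid synthesis, was at 7.24 to 7.50 (median 7.30) against 7.95 to 8.74 (median 8.36) (difference -1.002 ± 0.11). The lipase gene Lpl differed by -0.87 (SE 0.13) and the elongase gene Elovl6 by -0.79 (SE 0.17). On the higher side were the desaturase gene Scd2 with 1.08 (SE 0.22), and 2 genes of triglyceride assembly, Dgat2 with 0.98 (SE 0.17) and Gpam with 0.62 (SE 0.13), beside the elongase gene Elovl1 with 0.57 (SE 0.16). Genes of prolactin and STAT5 signalling had 5 of 10 higher and none lower (median 0.223). The kinase gene Jak2 was at 9.85 to 10.21 (median 10.05) against 9.05 to 9.49 (median 9.45) (difference 0.66 ± 0.17) and Stat5a, for the factor it activates, at 8.28 to 8.93 (median 8.54) against 7.99 to 8.24 (median 8.15) (difference 0.46 ± 0.10). Socs2, a feedback inhibitor gene, and Ptpn1, a phosphatase gene, differed by 0.75 (SE 0.18) and 0.69 (SE 0.13). The feedback inhibitor genes Cish, Socs1 and Socs3 did not pass. Csn1s1, given above, was lower in the sort in which Jak2 and Stat5a were higher.

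Transcription factors of the luminal lineage split evenly, 8 higher and 8 lower of 26 measured. Beside the factors above, Myb was at 7.13 to 8.25 (median 7.92) in Sca1-positive and 6.17 to 6.70 (median 6.61) in Sca1-negative samples. Tfap2c, an AP-2 factor, was at 5.32 to 5.75 (median 5.58) against 6.34 to 7.23 (median 6.93). Hey1, a bHLH repressor and Notch target, was at 5.15 to 5.87 (median 5.39) against 5.98 to 7.79 (median 6.82). The sorts did not overlap for any of the 3, with differences of 1.26 (SE 0.11), -1.33 (SE 0.12) and -1.35 (SE 0.20).

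**Figure D3:**
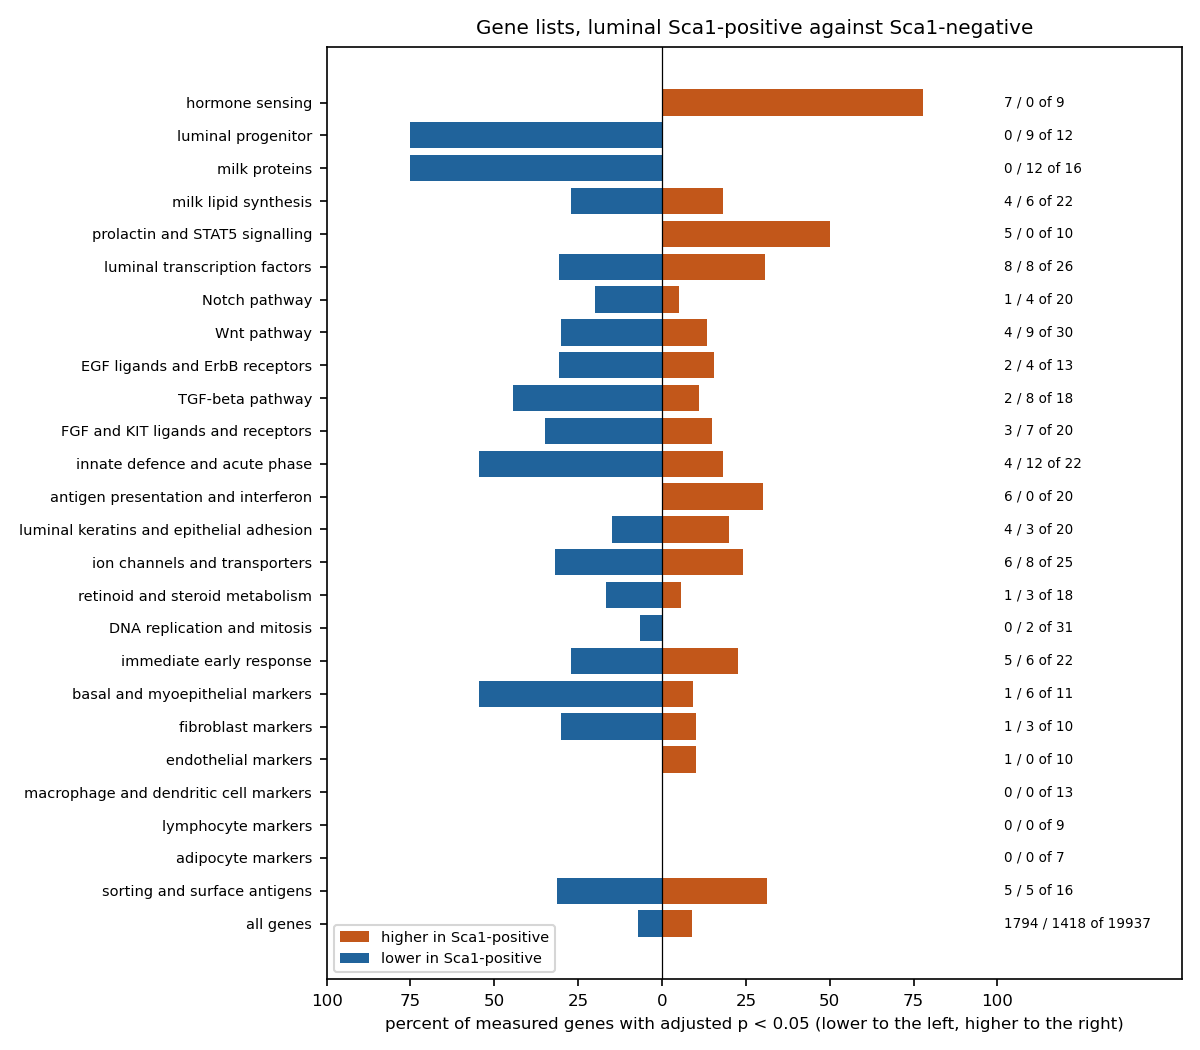
Percent of measured genes of 25 lists and of all genes that were called higher (orange, to the right) or lower (blue, to the left) in Sca1-positive cells over both histories (limma, adjusted p under 0.05), with counts of higher and lower genes of those measured printed at the right. Hormone-sensing genes lie to the right (7 of 9), and luminal progenitor (9 of 12) and milk protein genes (12 of 16) to the left, beside 9% higher and 7.11% lower over all genes.

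Notch is a receptor cut after it binds a ligand on a neighbouring cell, and the freed part acts in the nucleus with RBPJ and MAML cofactors. Of 20 measured genes of the pathway 1 was higher and 4 lower (25%, beside 16.1% of all genes; median -0.109). Jag1, a ligand, was at 7.64 to 8.48 (median 8.06) in Sca1-positive and 6.21 to 7.56 (median 6.99) in Sca1-negative samples (difference 1.12 ± 0.18). The receptor genes Notch1, Notch2 and Notch3 differed by -0.08 (SE 0.12), -0.27 (SE 0.10) and 0.13 (SE 0.085) and did not pass. Notch2 passed in 4 of 22 alternatives (adjusted p = 0.0487 with quantile normalization). The targets Hes1, Hes5, Heyl and Nrarp and the ligands Jag2, Dll1, Dll3 and Dll4 did not pass either. The targets Hey1 and Hey2 differed by -1.35 (SE 0.20) and -1.07 (SE 0.24), and the cofactor gene Maml2, at 5.76 to 6.28 (median 5.85) against 6.73 to 7.72 (median 7.37), by -1.33 (SE 0.15). Both probe sets of Maml2 gave a lower value, with differences of -1.33 and -0.712. Rbpj differed by -0.34 (SE 0.10). Its call was lost without the Sca1-negative nulliparous sample 3 (adjusted p = 0.061) and without nulliparous pool 3 in every subpopulation (adjusted p = 0.0771).

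Genes of the Wnt pathway were called lower in 9 and higher in 4 of 30 cases (median -0.0713), and the ligands differed in direction. The higher genes were Wnt4, Wnt5a, Fzd4 and Lrp5. Their count was 2 without the Sca1-positive parous sample 1, the Sca1-positive nulliparous sample 1, the Sca1-negative nulliparous sample 2 or 3, or nulliparous pool 1. Fzd4 lost its call in 8 of 21 and Lrp5 in 9 of 22 alternatives. Wnt5a was at 6.28 to 7.60 (median 7.23) in Sca1-positive and 5.46 to 6.47 (median 6.30) in Sca1-negative samples (difference 1.02 ± 0.15). Wnt5b was at 6.54 to 6.94 (median 6.84) against 7.76 to 8.61 (median 8.23) (difference -1.42 ± 0.12). Lgr4, a receptor for R-spondins, which strengthen the Wnt signal, was at 5.71 to 6.56 (median 6.25) against 7.21 to 8.38 (median 7.87), without overlap (difference -1.60 ± 0.14). The secreted Wnt binders Sfrp1 and Sfrp2 differed by -1.51 (SE 0.18) and -1.22 (SE 0.22).

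Egfr, the receptor for EGF, amphiregulin and related ligands, was at 5.80 to 6.15 (median 5.94) in Sca1-positive and 8.26 to 8.77 (median 8.48) in Sca1-negative samples, so that the highest Sca1-positive value lay far below the lowest Sca1-negative value (difference -2.53 ± 0.10, 5.77-fold lower). Its mean of 5.96 in Sca1-positive cells was the lowest of the 6 subpopulations, beside 8.68 in total epithelial cells, 8.80 in basal CD49f-low cells and 9.71 in stromal cells. Erbb4, a receptor for neuregulins, differed by -1.01 (SE 0.16), and Erbb2 and Erbb3 by 0.0776 and -0.06 without passing. Among the ligands, Epgn (epigen) was at 8.47 to 9.57 (median 9.33) against 6.84 to 8.11 (median 7.59) and differed by 1.63 (SE 0.27), and Nrg4 by 0.56 (SE 0.09). Nrg1 differed by -1.11 (SE 0.29) and Hbegf by -0.48 (SE 0.12). In all, 2 of 13 EGF family genes were higher and 4 lower (median -0.06).

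Fgfr2, the receptor for FGF7 and FGF10, was higher. It was at 9.56 to 10.31 (median 10.17) in Sca1-positive and 7.54 to 8.82 (median 8.71) in Sca1-negative samples, without overlap (difference 1.56 ± 0.13), and had its highest mean of the 6 subpopulations in Sca1-positive cells. Met, the receptor for hepatocyte growth factor, was at 8.08 to 8.65 (median 8.43) against 10.02 to 10.48 (median 10.13) (difference -1.81 ± 0.17). Igf1r, the receptor for insulin-like growth factors, was at 5.03 to 5.70 (median 5.36) against 7.03 to 7.50 (median 7.11) (difference -1.80 ± 0.13). Igfbp5, a secreted binder of those factors that is known for its rise in involution, was at 6.54 to 7.91 (median 7.46) against 9.28 to 11.04 (median 10.39) (difference -2.91 ± 0.15). For these 3 no sample overlapped, and in each history the Igfbp5 difference was of like size, -2.71 in nulliparous and -3.11 in parous mice. Igf2r, which clears IGF2 from the cell surface, differed by 0.54 (SE 0.093). Of the 20 genes of the list for FGF, KIT, MET and IGF ligands and receptors, 3 were higher and 7 lower (median -0.121), with 4 lower without the Sca1-positive parous sample 2. Fgfr1 and Fgfr4 did not pass (adjusted p = 0.905 and 0.341).

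The TGF-beta pathway had 2 higher and 8 lower of 18 measured genes (median -0.249). The higher genes were Inhba and Tgfb1, and Tgfb1 lost its call without the Sca1-positive parous sample 1 (adjusted p = 0.0582) and without the Sca1-positive nulliparous sample 2 (adjusted p = 0.0748). Tgfb2, a ligand, was at 6.28 to 7.35 (median 6.91) in Sca1-positive and 8.76 to 9.50 (median 9.17) in Sca1-negative samples, without overlap (difference -2.25 ± 0.16). Ltbp1, which holds latent TGF-beta in the matrix, was at 6.85 to 7.72 (median 7.43) against 8.001 to 8.72 (median 8.18) (difference -0.92 ± 0.14), and the coreceptor gene Tgfbr3 differed by -0.87 (SE 0.14). Itgb8, for the integrin chain that releases TGF-beta from its latent form, was at 5.77 to 7.20 (median 6.28) against 9.11 to 9.95 (median 9.61) (difference -3.25 ± 0.20). Inhba, for the activin A chain, was at 5.82 to 8.20 (median 7.27) against 5.41 to 6.67 (median 6.22) and was higher by 0.97 (SE 0.22). Bmpr1b, a receptor for bone morphogenetic proteins of the same superfamily, was at 7.30 to 8.42 (median 8.04) against 5.64 to 7.21 (median 5.90) (difference 1.83 ± 0.18).

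Genes of innate defence were lower in 12 and higher in 4 of 22 measured cases (median -0.695), and secreted defence proteins stood on both sides. Lcn2, which binds bacterial iron carriers, was at 7.38 to 8.50 (median 8.05) in Sca1-positive and 10.70 to 11.30 (median 11.06) in Sca1-negative samples. Lbp, the carrier of lipopolysaccharide to CD14, was at 6.01 to 7.01 (median 6.45) against 8.63 to 9.86 (median 9.05). Chil1, a chitinase-like glycoprotein, was at 5.77 to 7.09 (median 6.16) against 8.43 to 9.89 (median 9.48). None of the 3 overlapped (differences -2.997 ± 0.29, -2.68 ± 0.18 and -2.99 ± 0.26), and Cd14 and Ltf, given above, were lower as well. Higher in Sca1-positive cells were Wfdc2, a protease inhibitor of the whey acidic protein family, at 10.88 to 11.58 (median 11.29) against 9.19 to 9.85 (median 9.70), and Slpi, another such inhibitor, at 10.31 to 10.99 (median 10.73) against 9.60 to 10.21 (median 9.96). Their differences were 1.65 (SE 0.27) and 0.78 (SE 0.14), without overlap. The chemokine gene Cxcl15 was at 9.76 to 11.16 (median 11.09) against 7.07 to 10.50 (median 9.17) and the defensin gene Defb1 at 5.60 to 8.86 (median 7.19) against 4.86 to 6.52 (median 5.22), each with overlap (differences 1.72 ± 0.38 and 1.69 ± 0.29). Antimicrobial Reg3g was at 6.58 to 7.71 (median 7.45) against 4.91 to 5.99 (median 5.35) (difference 1.88 ± 0.22).

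Of 20 measured genes of antigen presentation and interferon response, 6 were higher in Sca1-positive cells and none lower (median 0.0597), with up to 2 lower in alternatives. Psmb8, a subunit of the immunoproteasome that cuts peptides for presentation, was at 8.92 to 9.35 (median 9.004) in Sca1-positive and 8.21 to 8.43 (median 8.29) in Sca1-negative samples. Tap2, a chain of the peptide transporter into the endoplasmic reticulum, was at 7.53 to 8.31 (median 8.06) against 7.06 to 7.14 (median 7.10). Neither overlapped (differences 0.77 ± 0.11 and 0.87 ± 0.11). Psmb9 and Stat2 differed by 0.81 (SE 0.16) and 0.67 (SE 0.16) with overlap. H2-K1, H2-D1 and Isg15 were only in probe sets with several symbols and were not used.

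Keratin, junction and mucin genes were called in both directions, with 4 higher and 3 lower of 20 measured (median 0.0624). Cldn1, for a sealing claudin of tight junctions, was at 5.98 to 7.79 (median 6.76) in Sca1-positive and 8.48 to 10.34 (median 9.68) in Sca1-negative samples (difference -2.76 ± 0.33). Cldn8, for another claudin, was at 8.24 to 9.55 (median 8.96) against 6.56 to 8.80 (median 7.62), with overlap (difference 1.27 ± 0.20). Dsp, for desmoplakin of the desmosome, was at 10.17 to 10.49 (median 10.33) against 8.98 to 9.81 (median 9.67) (difference 0.76 ± 0.12). Krt4, a keratin of mucosal epithelia, was at 9.30 to 10.78 (median 10.15) against 6.46 to 9.28 (median 7.86), and Krt6a at 8.96 to 10.09 (median 9.64) against 6.73 to 8.15 (median 7.95) (differences 2.16 ± 0.37 and 1.93 ± 0.30). Krt19 differed by 0.76 (SE 0.25), without overlap, but its call was lost in 8 of 22 alternatives (largest adjusted p = 0.0819). Among mucins, Muc16 was at 6.14 to 8.68 (median 7.997) against 3.77 to 5.76 (median 4.52), while Muc1 was at 5.80 to 6.53 (median 6.17) against 8.18 to 9.03 (median 8.42). Thus Muc16 was 7.6-fold higher and Muc1 4.95-fold lower in Sca1-positive cells.

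Ion channel and transporter genes were called in both directions, 6 higher and 8 lower of 25 measured (median -0.111). Scnn1a, the alpha subunit of the epithelial sodium channel, was at 8.98 to 9.55 (median 9.36) in Sca1-positive and 7.12 to 8.46 (median 7.88) in Sca1-negative samples (difference 1.46 ± 0.19). Slc12a2, the basolateral sodium, potassium and chloride cotransporter, was at 11.41 to 11.99 (median 11.56) against 10.71 to 11.25 (median 10.86) (difference 0.66 ± 0.12). Slc5a5, the iodide transporter that loads milk with iodide, was at 8.02 to 9.45 (median 8.95) against 6.78 to 8.16 (median 7.41), with overlap (difference 1.36 ± 0.23), and Clca1 differed by 1.62 (SE 0.13). Atp2b1, a calcium pump of the plasma membrane, was at 7.68 to 8.70 (median 8.16) against 10.08 to 10.95 (median 10.47) (difference -2.36 ± 0.14). Kcnn4, a potassium channel opened by calcium, was at 5.95 to 6.20 (median 6.04) against 7.22 to 7.68 (median 7.47) (difference -1.41 ± 0.11). Slc2a1, the glucose transporter GLUT1, was at 8.98 to 9.31 (median 9.18) against 9.82 to 10.37 (median 10.07), and for these last 3 genes no sample overlapped (difference -0.91 ± 0.099).

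Of 18 measured genes of retinoid and steroid metabolism 4 were called (22.2%, beside 16.1% of all genes; median -0.0813), a share near that of all genes. Crabp2, which carries retinoic acid to its receptor, was at 7.79 to 8.50 (median 8.30) in Sca1-positive and 9.97 to 10.28 (median 10.12) in Sca1-negative samples. Cyp1b1, an oxidase of estradiol and retinoids, was at 5.59 to 7.69 (median 6.34) against 8.24 to 10.21 (median 8.67). Neither overlapped (differences -1.90 ± 0.19 and -2.70 ± 0.32), and with Aldh1a3 they were the 3 lower genes. Rara, a retinoic acid receptor gene, was higher by 0.55 (SE 0.13).

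Few genes of cell division were called. Of 31 measured genes of DNA replication and mitosis none was higher and 2 were lower (6.45%, beside 16.1% of all genes; median -0.0645). These were Pcna, the clamp of the replication fork, at 10.79 to 11.29 (median 10.97) in Sca1-positive and 11.26 to 11.90 (median 11.57) in Sca1-negative samples (difference -0.53 ± 0.12), and Mcm7, of the replicative helicase, whose difference of -0.43 (SE 0.14) lost its call in 10 of 21 alternatives that tested it (largest adjusted p = 0.114). The count of lower genes was 6 without nulliparous pool 1, 5 with array weights and 4 without the Sca1-negative nulliparous sample 1. Mki67 and Top2a differed by -0.521 and 0.00538 and did not pass.

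Immediate early genes, which respond to growth signals and also to the handling of tissue, were called on both sides, 5 higher and 6 lower of 22 (median -0.023). Nr4a2, an orphan nuclear receptor gene, was at 5.63 to 6.92 (median 5.85) in Sca1-positive and 7.04 to 8.59 (median 8.17) in Sca1-negative samples. Egr2, a zinc finger factor gene, was at 7.51 to 8.45 (median 7.92) against 8.63 to 9.51 (median 9.09), and Ccn2, a target of YAP and of TGF-beta, at 6.53 to 7.04 (median 6.75) against 7.48 to 8.76 (median 8.08). The sorts did not overlap for any of the 3 (differences -1.93 ± 0.16, -1.18 ± 0.12 and -1.31 ± 0.14). Klf4 was higher by 0.68 (SE 0.11) and Atf3 by 0.41 (SE 0.11). Fos and Fosb were higher by 0.48 and 0.43, with the call lost in 8 and 11 of 22 alternatives (largest adjusted p = 0.104 and 0.154). The count of higher genes was 3 without the Sca1-negative sample 2 or 3 of either history, the Sca1-positive sample 1 of either history or the Sca1-positive nulliparous sample 2. Fos and Fosb both lost their calls with quantile normalization as well (limma, adjusted p = 0.0796 and 0.123).

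Of the called genes whose 6 and 6 samples did not overlap, the 15 with the largest differences in each direction were taken, leaving out predicted genes and numbered families. On the higher side Muc16 led with 2.93 (SE 0.32), followed by Plac8, a small cysteine-rich protein, with 2.40 (SE 0.23), the fibrinogen beta chain gene Fgb with 2.35 (SE 0.29) and Ly6d, a relative of Ly6a, with 2.32 (SE 0.25). Fgb was at 9.51 to 10.36 (median 9.69) in Sca1-positive and 6.78 to 8.78 (median 7.31) in Sca1-negative samples, and Ly6d at 9.63 to 11.12 (median 10.25) against 7.42 to 8.57 (median 7.95). Trpc6, a cation channel, was at 8.35 to 9.68 (median 8.997) against 6.25 to 7.62 (median 6.61), and Tspan1, a tetraspanin, at 8.70 to 10.12 (median 9.78) against 6.31 to 8.61 (median 7.30). The other genes of this set were Krt4, Mia2, Ttc6, Krt6a, Reg3g, Gipc2, Bmpr1b, Clip4 and the glutamine transporter gene Slc38a1, with differences down to 1.82.

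On the lower side Mme led. It encodes neprilysin, a peptidase of the cell surface also known as CD10, and was at 5.20 to 6.33 (median 6.03) in Sca1-positive and 9.49 to 10.13 (median 9.72) in Sca1-negative samples (difference -3.88 ± 0.15, 14.7-fold lower). Car2, a carbonic anhydrase gene, was at 5.15 to 5.76 (median 5.47) against 7.97 to 9.14 (median 8.92) (difference -3.26 ± 0.17). Slc28a3, a nucleoside transporter gene, was at 5.96 to 6.98 (median 6.23) against 8.85 to 10.15 (median 9.58) (difference -3.17 ± 0.26). Slc5a8, for a transporter of lactate and short fatty acids, was at 5.30 to 5.998 (median 5.52) against 8.03 to 8.99 (median 8.69) (difference -3.01 ± 0.22). P3h2, which modifies collagen, Enpp3, an ectonucleotidase, and Egln3, an oxygen-dependent hydroxylase of hypoxia factors, had differences of -3.12 (SE 0.20), -3.11 (SE 0.15) and -3.09 (SE 0.25). The differences of all 15 lay between -3.88 and -2.99.

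The other 4 subpopulations show where else these genes are expressed. Of the 239 genes more than 1 log2 unit higher, 206 had their highest mean in Sca1-positive cells, 23 in stromal cells and 5 in each basal sort. Of the 352 genes more than 1 log2 unit lower, 177 had their highest mean in Sca1-negative cells, 69 in basal CD49f-low, 35 in basal CD49f-high, 67 in stromal and 4 in total epithelial cells. These are counts of means, with no test. Mme averaged 11.28 in basal CD49f-low cells, 10.13 in stromal cells, 9.78 in Sca1-negative and 5.90 in Sca1-positive cells, the lowest of all. Chil1 likewise averaged 10.82 in basal CD49f-low cells, 9.27 in Sca1-negative and 6.28 in Sca1-positive cells, and Itgb8 9.49, 9.60 and 6.35. For Car2 and Slc28a3 the Sca1-negative cells stood alone, with means of 8.75 and 9.55 beside 5.71 and 6.59 in basal CD49f-low and 5.49 and 6.38 in Sca1-positive cells. Plac8 was highest in stromal cells, at 9.996, above 8.57 in Sca1-positive and 6.17 in Sca1-negative cells.

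**Figure D4:**
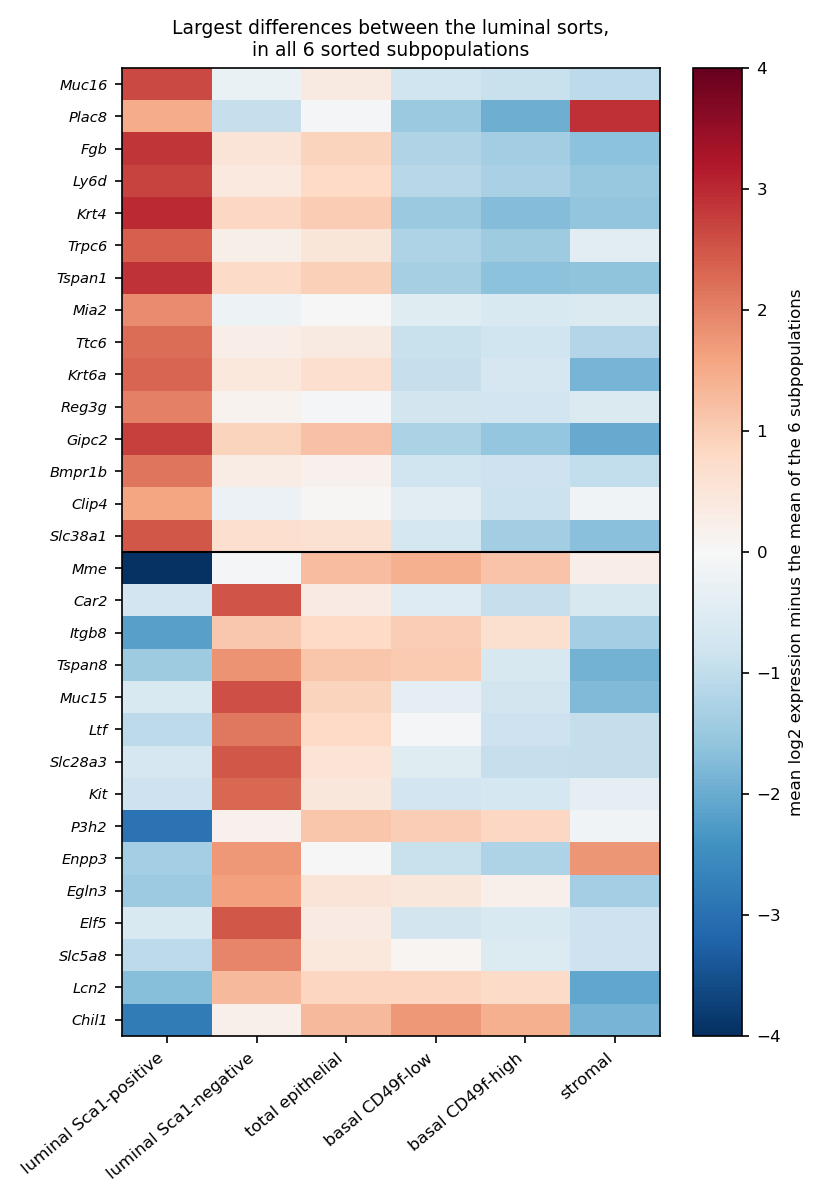
Mean log2 expression of the 15 genes most higher (upper block) and the 15 most lower (lower block) in Sca1-positive cells, in each of the 6 sorted subpopulations, as the difference from the mean of the 6 (colour scale in log2 units). All genes of the upper block but Plac8, which is highest in stromal cells, are highest in Sca1-positive cells, while Mme, P3h2 and Chil1 of the lower block are lowest in Sca1-positive cells and higher in basal than in Sca1-negative cells.

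Markers of basal cells moved with the Sca1 gate. Of 11 measured basal and myoepithelial genes, 6 were lower and 1 higher in Sca1-positive cells (median -0.566). The higher gene, Krt15, lost its call in 12 of 22 alternatives (largest adjusted p = 0.151). Acta2, for smooth muscle actin, was at 6.23 to 7.17 (median 6.51) in Sca1-positive and 7.48 to 8.41 (median 7.89) in Sca1-negative samples (difference -1.35 ± 0.12), and Cnn1, for calponin, at 5.39 to 6.12 (median 5.80) against 6.10 to 8.09 (median 7.40) (difference -1.52 ± 0.14). Their means in basal CD49f-low cells were 11.65 and 11.74. The log2 of the summed signal of the 11 genes ran from 9.83 to 10.5 in Sca1-positive, 10.3 to 11 in Sca1-negative and 14.1 to 14.3 in basal CD49f-low samples. Trp63, the defining factor gene of basal cells, differed by -0.0646 and did not pass. The part of basal cells in the differences of genes that are high in basal cells, such as Mme, Itgb8, Tspan8, Lcn2, Egfr and Igfbp5, was not tested. For Kit, Elf5, Car2 and Slc28a3 the basal CD49f-low means, given above, were near the Sca1-positive means. The part of basal cells was not tested for these genes either.

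Fibroblast markers were uneven between the sorts. Of 10 measured genes, 1 was higher and 3 lower. Dcn, for the proteoglycan decorin, was at 8.95 to 11.19 (median 10.45) in Sca1-positive and 7.80 to 9.46 (median 8.80) in Sca1-negative samples (difference 1.53 ± 0.18) and at a mean of 12.54 in stromal cells. Postn, for periostin, was at 4.72 to 6.25 (median 6.14) against 7.04 to 9.32 (median 8.06) and was lower (difference -2.42 ± 0.23). Its mean was 11.63 in stromal, 11.56 in basal CD49f-low and 11.4 in basal CD49f-high cells. Postn thus did not set fibroblasts apart from basal cells in this series. Col1a1 and Col3a1 differed by -0.0492 and -0.0529 and did not pass. The log2 summed signal of the list was 11.1 to 11.5 in nulliparous and 9.99 to 10.7 in parous Sca1-positive samples, 10.1 to 10.6 in Sca1-negative samples and 14 to 14.3 in stromal samples. Such a sum is weighted to the genes with the highest values, and Dcn alone reached 11.19 in Sca1-positive samples. The part of fibroblasts in the difference of Plac8 and the other 22 higher genes that peaked in stromal cells was not tested. No gene of 13 macrophage and dendritic cell markers, 9 lymphocyte markers or 7 adipocyte markers was called by limma in the fit of all samples over both histories. At an unadjusted p under 0.05 there were 3 macrophage, 0 lymphocyte and 1 adipocyte markers, all lower. Alternatives called up to 4 macrophage markers and 1 adipocyte marker lower, both counts with the replicate block, and 1 macrophage marker was lower in parous mice. Of 10 endothelial markers 1 was called, Vwf, at 6.83 to 7.85 (median 6.98) against 6.33 to 6.88 (median 6.67) (difference 0.54 ± 0.14). The summed signal of the macrophage list was 9.19 to 9.49 in Sca1-positive and 9.24 to 10.1 in Sca1-negative samples, and that of the adipocyte list 8.43 to 9.04 and 9.08 to 9.48.

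In nulliparous mice 1690 genes differed between the sorts (8.48%), 900 higher (4.51%) and 790 lower (3.96%), and in parous mice 1949 (9.78%), 1015 higher (5.09%) and 934 lower (4.68%). The 3 and 3 samples of the sorts did not overlap for 24.3% of all genes in nulliparous and 28.1% in parous mice. Of the genes called, 1058 were called in both, which is 62.6% of the nulliparous and 54.3% of the parous calls, and 1056 had the same direction. Of the genes called in nulliparous mice, 1626 (96.2%) had the same direction in parous mice, called there or not. Across genes, which are not independent replicates, the differences in the 2 histories correlated with Pearson's r of 0.767 over all genes. Hormone-sensing genes had medians of 1.13 in nulliparous and 1.3 in parous mice, progenitor genes -1.33 and -1.48, and milk protein genes -1.92 and -1.87. Kit differed by -3.11 and -3.14 in nulliparous and parous mice, Elf5 by -3.08 and -3.10, Esr1 by 1.44 and 1.06, and Pgr by 1.78 and 1.46.

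A direct test of whether the contrast differed by history called 19 of 19937 genes (0.0953%; limma, adjusted p under 0.05), 9 with a higher (0.0451%) and 10 with a lower (0.0502%) Sca1-positive minus Sca1-negative difference in parous mice. None was a hormone-sensing, progenitor or milk protein gene. Those lists hold 9, 12 and 16 measured genes, so at a share of 0.0953% a call among them was unlikely. The lack of a call does not show that their contrasts were equal in both histories. Trpm6, a magnesium channel gene, was at 7.73, 7.96 and 8.10 in nulliparous Sca1-negative samples and between 5.50 and 6.28 in the other 9 luminal samples. Its contrast was -2.33 in nulliparous and -0.057 in parous mice (difference between histories 2.27, SE 0.29, adjusted p = 0.000211). Klk11, a serine protease gene, had the same pattern, at 6.96, 6.39 and 6.89 in nulliparous Sca1-negative samples and 4.62, 4.74 and 4.77 in parous ones, with -2.08 and -0.45 as its contrasts (1.63, SE 0.25, adjusted p = 0.00226). Syt14, of the synaptotagmin family, was at 5.94, 5.68 and 5.54 in parous Sca1-positive samples and between 3.52 and 4.15 in the other 9 (1.55, SE 0.17, adjusted p = 2.08e-05). These 3 were called in all alternatives that tested them, 22 for Trpm6 and 21 each for Klk11 and Syt14. The filter on dim genes left out Klk11 and Syt14, so their calls were not tested under it. The count of 19 was 8 without the Sca1-negative parous sample 1, 9 without the Sca1-negative or without the Sca1-positive nulliparous sample 2, 10 without the Sca1-positive parous sample 2 and 30 without the Sca1-negative nulliparous sample 1. It was 35 without nulliparous pool 1 and 12 without nulliparous pool 3 in every subpopulation.

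The other genes named for a difference between histories lost the call in 1 or more alternatives. Id2, for an inhibitor of bHLH factors, turned its direction. It was at 7.36, 7.58 and 7.56 in Sca1-positive and 6.61, 6.72 and 6.54 in Sca1-negative nulliparous samples, and at 7.10, 7.52 and 6.96 and 8.16, 8.12 and 7.88 in parous ones, so that the sort with the higher value changed with history (-1.72, SE 0.29, adjusted p = 0.00727). Its call was lost without nulliparous pool 3 in every subpopulation (-1.65, adjusted p = 0.104). Lipm, of a lipase family, was at 8.02, 6.87 and 7.23 in parous and 5.53, 5.02 and 5.07 in nulliparous Sca1-negative samples, and at 4.42 to 5.01 in all Sca1-positive samples (-1.93, SE 0.29, adjusted p = 0.00221). Its call was lost when the 12 luminal samples were fitted alone (-1.93, adjusted p = 0.0692). Tgfb3, a TGF-beta ligand gene, was at 9.74, 9.14 and 8.81 in parous and 8.09, 7.56 and 7.40 in nulliparous Sca1-negative samples, and at 6.92 to 7.61 in Sca1-positive samples (-1.62, SE 0.31, adjusted p = 0.0228). The basal keratin gene Krt5 was at 8.04, 8.03 and 7.92 in parous Sca1-negative samples and between 6.11 and 7.05 in the other 9 (-1.22, SE 0.25, adjusted p = 0.0451). The summed signal of the basal list was 10.8 to 11 in parous and 10.3 to 10.7 in nulliparous Sca1-negative samples, and its part in the Krt5 and Tgfb3 values was not tested. Tgfb3 lost its call in 9 and Krt5 in 12 of 22 alternatives.

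**Figure D5:**
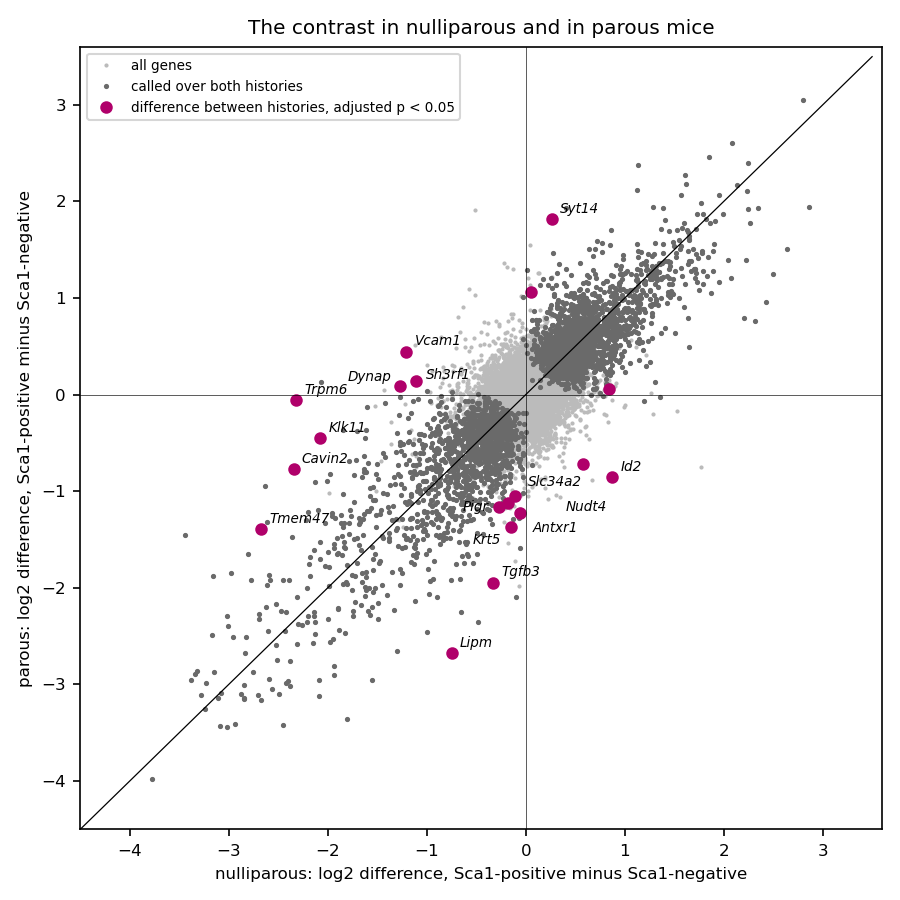
Log2 difference, Sca1-positive minus Sca1-negative, in nulliparous mice (horizontal axis) against the same in parous mice (vertical axis), 1 point per gene for 19937 genes, with the line of equality. Dark points are the 3212 genes called over both histories, and the 19 large points are those whose contrast differed by history, with 16 of them named.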

How the data were processed

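Log2 expression per probe set of a 1-colour Affymetrix array was used as deposited in the authors' value table for all 35 samples. The submitters' processing notes name the affy package, while version and normalization are not given in these sources. The 34760 probe sets had values of 1.74 to 13.28 and column medians of 5.813 to 5.924. Of them 21640 had 1 gene symbol, 1321 several and 11799 none in the platform annotation. The brightest of a gene's single-symbol probe sets stood for the gene, which gave 19937 genes.

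All 35 samples were fitted as 12 group means with limma 3.58.1 (R 4.3.3; lmFit, eBayes with a mean trend), and p-values were adjusted over all genes by Benjamini-Hochberg. The 4 contrasts were the sorts over both histories, within each history, and the difference between histories. On simulated data for the contrast over both histories, 200 of 19937 genes were changed and noise was drawn independently for each sample. There, 98% of genes changed by 1 log2 unit and 99% of those changed by 2 were recovered, and 6.64% of calls were false. In the data 3212 genes were called and pools may be related, so these shares need not hold there. Samples are separate pools, but whether same-numbered pools came from the same mice in each sort is not stated. The number of arrays limits the precision.

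Named genes were the 15 largest non-overlapping called differences in each direction, up to 4 called members per list and direction, a fixed panel, and up to 8 genes per direction for the difference between histories. Members, lists and panel were chosen with earlier results of these data known. Alternatives were array weights, no trend, quantile normalization, a filter on dim genes, the mean of probe sets, luminal samples alone, a replicate block, a random block by pool, and each luminal sample left out. Leaving out nulliparous pool 1 or 3, meaning all nulliparous samples with that replicate number, was added after seeing the data.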

Additional observations from a re-analysis of the deposited data

Results flagged for a closer look

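In 6 of 116 sets of 6 samples, 1 sample lay far from the other 5 (gap over range above 0.625). Chance alone marks about 1 set in 20, and each set of 6 mixes both histories. Fgb was at 10.4 in the Sca1-positive nulliparous sample 1 (next 9.77). Egln3 was at 4.48 and Cd14 at 7.04 in the Sca1-positive parous sample 3 (next 5.67 and 7.91). Itgb3 was at 6.3 in the Sca1-negative parous sample 3 (next 6.78), and Notch1 at 7.46 in the Sca1-negative nulliparous sample 3 (next 7.92). Krt18 was at 11.6 in the Sca1-positive nulliparous sample 3 (next 12).

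The Sca1-positive minus Sca1-negative contrast differed between parous and nulliparous mice in the limma interaction test for 16 named genes. It was higher in parous mice for Trpm6 (2.27), Vcam1 (1.65), Klk11 (1.63), Cavin2 (1.58), Syt14 (1.55), Dynap (1.36), Tmem47 (1.29) and Sh3rf1 (1.25). It was lower for Lipm (-1.93), Id2 (-1.72), Tgfb3 (-1.62), Krt5 (-1.22), Antxr1 (-1.17), Slc34a2 (-0.949), Nudt4 (-0.938) and Pigr (-0.894).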

How the results depend on the processing

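The counts of called genes over both histories and within each history stayed within 1.5 times their values in all 22 alternatives (20 planned, 2 added). Leaving out 1 luminal sample gave 2768 to 3174 over both histories, 1243 to 1678 in nulliparous and 1359 to 1973 in parous mice. The count of 19 genes for the difference between histories was less stable. It was 63 with array weights, 29 with the replicate block, 35 without nulliparous pool 1, 12 without nulliparous pool 3, and 8 to 30 with 1 sample left out. It was 5 without dim genes. That filter left out Antxr1, Cavin2, Dynap, Klk11, Lipm, Pigr, Slc34a2 and Syt14 of the named genes. Krt5, Sh3rf1 and Nudt4 were tested under it and lost the call. The cause of these changes in the count was not tested. With the replicate number as a block, 3748 genes were called over both histories, 2110 in nulliparous and 2854 in parous mice. Own-number deviations correlated at 0.077 to 0.21, and every sample correlated best with its own number, a hint from the data and not the design. Of 150 named genes called over both histories, 133 were called in every alternative that tested them and 17 lost the call in 1 or more. Of 15 not called, 7 gained it in 1 or more. No named gene changed sign where the fit of all 35 samples or the alternative called it. Sign changes of genes called in neither were not counted, as for Id2 over both histories (-0.0739 to 0.0664). Array signal near background limits differences among dim genes. In Sca1-positive cells the means of Kit (5.94), Elf5 (5.88), Mme (5.90) and Egfr (5.96) lay near the column medians of 5.813 to 5.924. Muc16 averaged 4.65 in Sca1-negative cells, below those medians. Hey2 averaged 4.46 in Sca1-positive and 5.53 in Sca1-negative cells, below them in both sorts. Among other genes, Nrg1 (4.94), Sfrp1 (4.95) and Lpl (5.21) averaged below them in Sca1-positive cells, and Nrg4 (5.29) in Sca1-negative cells. The part of background signal in the differences and fold values of these genes was not tested.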
